A study of Mus musculus with 8 samples.

Results

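The epidermal differentiation complex is a cluster of genes on mouse chromosome 3 that encode the precursors of the cornified envelope, the crosslinked protein shell of dead surface keratinocytes, together with calcium-binding S100 proteins. Its members were taken by gene symbol as all Sprr genes, the Lce genes with a numbered family, the S100a genes with a number alone, and Ivl, Lor, Flg, Flg2, Hrnr, Rptn, Tchh, Tchhl1 and Crnn. This gave 55 genes, read by 64 probes, of the 21893 genes with a symbol on the array. All 55 matched chromosome 3 in RefSeq, and 53 had values on all 8 arrays and were tested.

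The study profiled total RNA of mammary gland epithelium, taken from FVB/N-J animals that were virgin and wild type, in a 2 by 2 design of 4 groups with 2 samples each, 8 in all. The family was selected on its RNA difference between the subpopulations in these data, the log2 difference described first below. Cells of subpopulation P4, enriched for mammary stem cells and called MaSC, and of subpopulation P5, enriched for luminal progenitors and called LP, were grown as mammospheres in 3D culture. Of each subpopulation 1 group was a control and the other received interferon α (IFNα) at 1000 U/ml, with harvest after 8 days. Each sample was labelled with Cy5 and hybridised against Universal Mouse Reference RNA pooled from 11 cell lines and labelled with Cy3, so a level is the log2 ratio of the sample to that pool for the same probe. The titles give P4 and P5 the same surface phenotype, and the labels say neither whether sorting came before or after culture nor whether the replicates are separate animals or cultures. The p-values therefore measure only the spread between these samples, which may be technical.

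In skin, keratinocytes leaving the basal layer switch on this cluster in an ordered program. Involucrin and the small proline-rich (Sprr) proteins are laid down early under the plasma membrane, and loricrin and the late cornified envelope (Lce) proteins reinforce the shell after transglutaminases have begun to crosslink it. Filaggrin and its relatives, whose genes fuse an S100 domain to long repeats, bundle keratin filaments inside the shell, and several free S100 proteins act in the same cells as calcium-dependent regulators or alarm signals. The mammary epithelium is a skin-derived gland whose normal basal and luminal layers do not cornify.

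The start regions of 7 members are shown first because they come from subfamilies with different median differences between the 2 subpopulations. The windows are RefSeq sequence on GRCm38.p6, from 250 bases before to 50 bases after the annotated start, and capitals mark matches to the AP-1 motif TGANTCA or to the TATA motif TATAAA on either strand. The windows lie at chr3:92573686-92573985, minus strand for Ivl. They lie at chr3:92083093-92083392, minus strand for Lor and chr3:93273296-93273595, plus strand for Flg. Those of the small proline-rich genes lie at chr3:92438730-92439029, minus strand for Sprr1b, chr3:92364937-92365236, plus strand for Sprr2f and chr3:92316455-92316754, plus strand for Sprr2b. That of Lce1b lies at chr3:92656877-92657176, minus strand.
Ivl: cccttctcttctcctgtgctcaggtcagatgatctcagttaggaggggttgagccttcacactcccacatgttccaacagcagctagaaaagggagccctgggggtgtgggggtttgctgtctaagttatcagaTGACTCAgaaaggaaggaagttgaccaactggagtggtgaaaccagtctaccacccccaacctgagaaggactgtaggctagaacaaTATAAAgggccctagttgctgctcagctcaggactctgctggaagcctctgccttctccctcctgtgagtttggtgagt
Lor: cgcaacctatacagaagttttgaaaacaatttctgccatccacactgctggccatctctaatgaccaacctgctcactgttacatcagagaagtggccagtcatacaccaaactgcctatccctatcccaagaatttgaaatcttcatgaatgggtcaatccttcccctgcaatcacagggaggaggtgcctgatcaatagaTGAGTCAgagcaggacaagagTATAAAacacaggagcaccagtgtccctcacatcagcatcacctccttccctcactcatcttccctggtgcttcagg
Flg: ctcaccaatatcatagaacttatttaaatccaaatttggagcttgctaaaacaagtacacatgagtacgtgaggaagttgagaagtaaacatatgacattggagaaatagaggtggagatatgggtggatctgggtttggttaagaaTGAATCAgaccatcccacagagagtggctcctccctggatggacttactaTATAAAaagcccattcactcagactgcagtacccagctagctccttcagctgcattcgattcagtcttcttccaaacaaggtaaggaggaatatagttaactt
Sprr1b: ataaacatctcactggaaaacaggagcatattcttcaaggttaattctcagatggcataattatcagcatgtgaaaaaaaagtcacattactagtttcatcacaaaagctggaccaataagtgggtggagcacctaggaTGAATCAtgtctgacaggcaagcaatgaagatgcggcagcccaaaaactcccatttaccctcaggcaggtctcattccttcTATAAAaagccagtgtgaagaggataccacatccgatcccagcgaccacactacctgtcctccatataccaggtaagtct
Sprr2f: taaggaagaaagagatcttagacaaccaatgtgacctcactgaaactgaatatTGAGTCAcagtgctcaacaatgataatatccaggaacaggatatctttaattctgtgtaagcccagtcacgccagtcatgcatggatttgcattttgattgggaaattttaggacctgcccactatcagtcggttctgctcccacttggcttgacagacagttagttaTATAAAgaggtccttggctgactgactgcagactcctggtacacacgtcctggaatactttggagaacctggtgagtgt
Sprr2b: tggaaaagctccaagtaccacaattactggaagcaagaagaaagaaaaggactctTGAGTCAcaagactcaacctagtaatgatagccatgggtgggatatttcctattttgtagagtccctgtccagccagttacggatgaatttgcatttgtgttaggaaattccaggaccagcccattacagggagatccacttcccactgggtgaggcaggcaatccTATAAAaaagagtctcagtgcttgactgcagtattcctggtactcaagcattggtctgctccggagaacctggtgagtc
Lce1b: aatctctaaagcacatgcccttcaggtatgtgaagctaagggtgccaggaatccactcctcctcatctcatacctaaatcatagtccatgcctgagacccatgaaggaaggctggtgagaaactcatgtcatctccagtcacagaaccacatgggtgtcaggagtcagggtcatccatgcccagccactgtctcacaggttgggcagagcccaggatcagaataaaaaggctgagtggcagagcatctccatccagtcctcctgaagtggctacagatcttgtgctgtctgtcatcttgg
Among the 49 members with such a window, 17 (34.7%) held the AP-1 motif, against 7.93% of the windows of 27025 genes. The matches sat in 9 of 13 Sprr genes, 5 of 7 fused S100-type genes, Ivl and Lor, in 1 of 10 S100a genes (S100a11) and in 0 of 17 Lce genes. TATAAA was present in 22 (44.9%) of the member windows and in 14.2% of all. It was present in 10 of 13 Sprr, 4 of 7 fused S100-type and 3 of 17 Lce windows. The KLF-type motif GGGTGTG was found in 1 member window, that of Ivl (2.04%, against 7.85% of all). The interferon-stimulated response element, searched as TTTC, any 2 bases and TTTC, was found in 0 of the 49 (3.49% of all windows). AP-1 and TATA matches did not overlap in the windows printed, and all motifs were searched on both strands. Sprr2b and Sprr2f both carry the AP-1 and TATA letters. A match describes letters in a window of this length and does not show binding.

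The deposited ratios centred near 0 on every array, with medians from -0.14 to 0.15. LP control replicate 1 stood apart: the standard deviation of its log2 ratios was 0.626, against 1.19 to 1.26 on the other 7 arrays. Of the 46 members with a population difference of at least 0.5, S100a14 and Sprr2d moved by over 1.5 times without it, and named differences of at least 0.5 that moved that far are also given without it. Signal over background is unknown for every probe. Between 20.8% and 30.0% of the probes of an array lay within 0.1 of its most common ratio, and 4 to 6 members did so on a MaSC array and 10 to 15 on an LP array. For those members a ratio near 0 cannot be told from a probe without signal in either channel. Of the basal markers, 6 of 12 passed as higher in MaSC than in LP (2.34% of all genes did), Krt5 and Krt14 among them. Of the 9 luminal progenitor markers measured none passed in either direction (1.34% of all genes passed as lower), and 5 had positive differences.

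The complex genes were mostly higher in MaSC than in LP cultures. Averaged over control and IFNα, 48 of 53 members had a positive log2 difference, with a median of 2.08 against -0.02 over all 21794 genes. For 35 members all 4 MaSC arrays lay above all 4 LP arrays, which held for 7.58% of all genes, and for 3 members (S100a1, S100a10 and Sprr3) the LP arrays lay above the MaSC arrays, as for 10.4% of all genes. In limma's fit 28 members passed as higher in MaSC (2.34% of all genes did) and none as lower (1.34%). The family was proposed with this contrast in view, so these values are a description and carry no test of their own. In bulk cultures, fewer cells of a type and less RNA per cell cannot be told apart.

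The difference was present with and without the cytokine. In controls the median of the members was 2.64, with 14 members passing as higher (0.56% of all genes), and with IFNα it was 1.83, with 13 passing (0.454%), all of which also passed in controls. Lce3c passed in controls alone. Without LP control replicate 1 the median in controls was 2.56 and the averaged median 1.95, while 1 member passed in controls (Sprr1a) and 21 in the average. In controls 1 member also passed without MaSC control replicate 1, 0 without MaSC control replicate 2 and 6 to 8 without an array with IFNα. With IFNα 0 members passed when any 1 of the 4 arrays with IFNα was left out, and 7 passed without either MaSC control. Over the 8 fits that each leave out 1 array the averaged median ran from 1.95 to 2.47, and 15 to 25 members passed in the average.

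The subfamilies covered a wide range of population differences. Of the 5 broad subfamilies the fused S100-type genes had the highest median difference, 3.62 over 7 genes, followed by Ivl and Lor with 3.04. The 18 Lce genes had 2.79, within which the 5 Lce3 genes had 3.20 and the 13 Lce1 genes 2.08. The Sprr genes had 2.06 over 15 genes, which joined 4.00 for Sprr1a, Sprr1b, Sprr3 and Sprr4 with 1.09 for the 11 Sprr2 genes. The 11 S100a genes had 0.18, or 0.56 without LP control replicate 1, and the Sprr2 median was 1.78 without LP control replicate 2. Genes whose 4 MaSC arrays all lay above the LP arrays made up 7.58% of all genes. The count was 16 of 18 for Lce, 6 of 7 for the fused S100-type genes and 2 of 2 for Ivl and Lor. It was 7 of 15 for Sprr, 4 of 11 for Sprr2 and 4 of 11 for S100a.

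**Figure D1:**
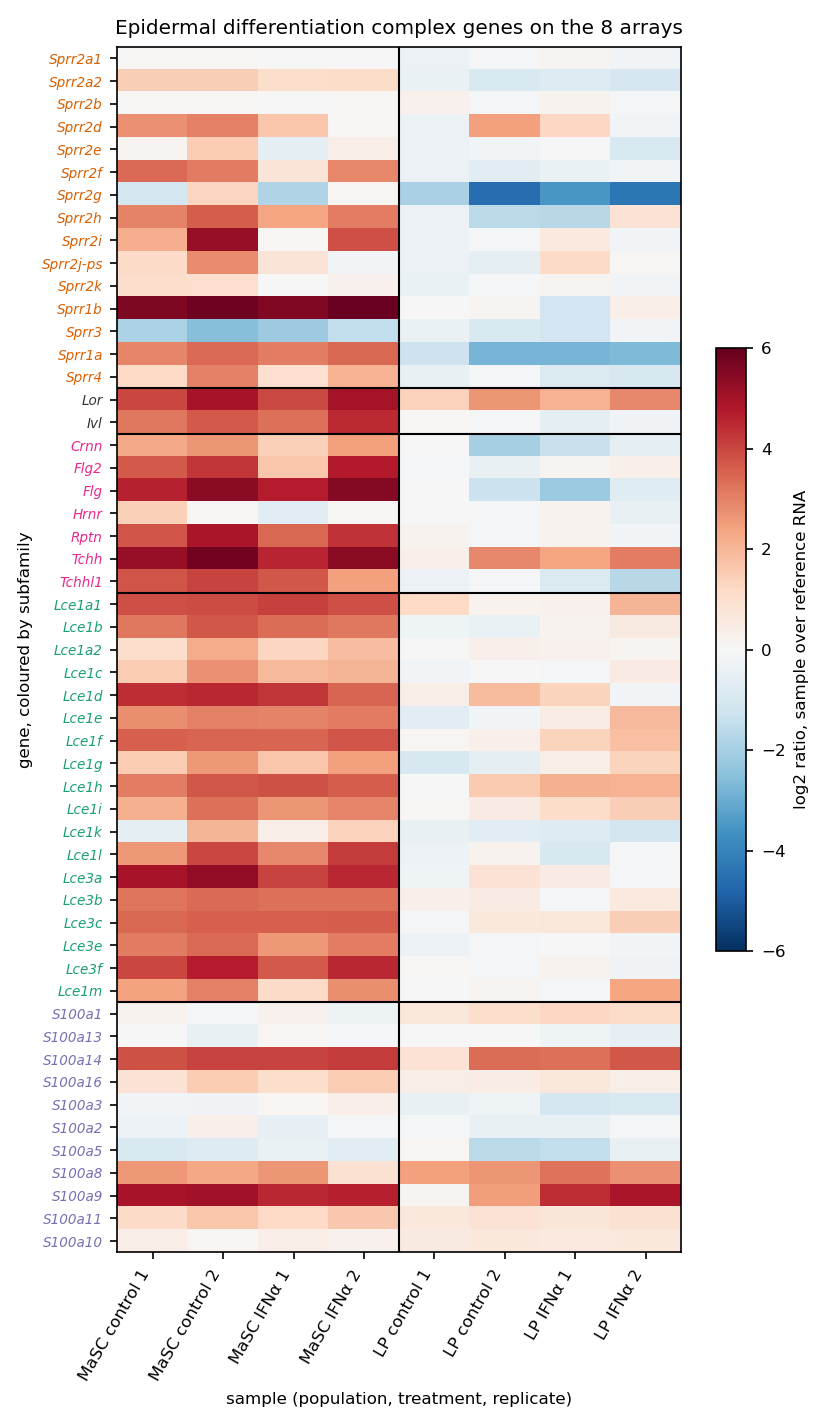
Heat map of the log2 ratio of sample to reference RNA for the 53 tested members (rows, ordered by subfamily and set apart by horizontal lines) on the 8 arrays (columns, MaSC left and LP right of the vertical line). Lce, fused S100-type, Ivl and Lor rows, apart from Hrnr and Lce1k, are red across the MaSC columns and paler across the LP columns, while the S100a rows show no common pattern, with a median difference of 0.18.

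Involucrin and loricrin are the classical early and late scaffold proteins of the envelope. The Ivl level was 3.16 and 3.68 in MaSC controls, 3.31 and 4.49 in MaSC with IFNα, 0.07 and -0.10 in LP controls, and -0.55 and -0.19 in LP with IFNα. As the mean of its 2 probes, every MaSC array lay more than 3 above the reference and every LP array near or below 0. The Ivl difference was 3.85 ± 0.30 (log2, ± SE). On 3 of the 4 LP arrays Ivl lay at the most common ratio of the array. Its 2 probes gave differences of 4.37 and 3.34, and the second read 1.77 and 2.36 on the MaSC arrays of replicate 1. Lor read on the MaSC arrays 4.00 and 4.95 without and 3.94 and 4.98 with IFNα, and on the LP arrays 1.40 and 2.64 without and 2.09 and 2.87 with it. Loricrin RNA was therefore above the reference in all samples, and its MaSC arrays lay 2.22 ± 0.43 above the LP arrays with no overlap. Without LP control replicate 1, the lowest LP value, the Lor difference was 1.91.

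The fused S100-type gene Flg had the largest mean population difference of the members, with Sprr1b close to it at 5.88 ± 0.35. Filaggrin, which aggregates keratin filaments and is later broken down to moisture-binding amino acids, is encoded by Flg, and its level was 4.61 and 5.40 in MaSC controls, 4.72 and 5.51 in MaSC with IFNα, 0.04 and -1.28 in LP controls, and -2.21 and -0.74 in LP with IFNα. The populations did not overlap and lay 6.11 ± 0.48 apart. Flg2, a filaggrin relative of the upper epidermis, read on the MaSC arrays 3.67 and 4.29 without and 1.68 and 4.75 with IFNα, and on the LP arrays -0.11 and -0.44 without and 0.16 and 0.31 with it. MaSC with IFNα replicate 1 was well below the other 3 but still above every LP array, and the difference was 3.62 ± 0.65. Repetin, another envelope protein with S100 domain, is encoded by Rptn, which stood at 3.75 and 4.90 in MaSC controls, 3.44 and 4.34 in MaSC with IFNα, 0.22 and -0.10 in LP controls, and 0.22 and -0.17 in LP with IFNα. Its LP values lay between -0.17 and 0.22, 3 of them at the most common ratio of their array, and the difference was 4.07 ± 0.33.

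Crnn encodes cornulin, abundant in squamous epithelia such as the oesophagus. Its level was 2.29 and 2.65 in MaSC controls, 1.43 and 2.44 in MaSC with IFNα, 0.00 and -2.01 in LP controls, and -1.34 and -0.56 in LP with IFNα. MaSC arrays were all above 1 and LP arrays near or below the reference, with a difference of 3.18 ± 0.51. Tchhl1, a relative of trichohyalin, read on the MaSC arrays 3.78 and 4.05 without and 3.73 and 2.48 with IFNα, and on the LP arrays -0.33 and -0.06 without and -0.85 and -1.68 with it. Here too the populations were separate (4.24 ± 0.34). Tchh, which encodes trichohyalin of the inner root sheath of hair and of tongue papillae, was above the reference in all samples, from 4.56 to 5.78 in MaSC and from 0.28 to 3.09 in LP. Its difference was 3.09 ± 0.60, or 2.45 without LP control replicate 1. Hrnr, encoding hornerin, was the exception, from -0.64 to 1.42 in MaSC and -0.42 to 0.20 in LP, with overlap and a difference of 0.29 ± 0.36.

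The Lce genes encode small proteins added late to the inner face of the envelope. The human relatives of the Lce3 group are known to be induced when the barrier is injured. In all 5 Lce3 genes every MaSC array lay above every LP array (7.58% of all genes). Lce3a stood at 4.96 and 5.31 in MaSC controls, 4.05 and 4.54 in MaSC with IFNα, -0.24 and 0.88 in LP controls, and 0.49 and -0.13 in LP with IFNα. Lce3f read on the MaSC arrays 3.99 and 4.72 without and 3.67 and 4.50 with IFNα, and on the LP arrays 0.07 and -0.05 without and 0.21 and -0.22 with it. All 4 LP values of Lce3f lay within 0.1 of the most common ratio of their array, so its LP level cannot be told from absence of signal. The differences were 4.46 ± 0.31 for Lce3a and 4.22 ± 0.27 for Lce3f.

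Lce3b and Lce3c had nearly constant MaSC levels. The Lce3b level was 3.21 and 3.41 in MaSC controls, 3.29 and 3.32 in MaSC with IFNα, 0.30 and 0.49 in LP controls, and -0.09 and 0.59 in LP with IFNα. Lce3c read on the MaSC arrays 3.44 and 3.57 without and 3.59 and 3.63 with IFNα, and on the LP arrays -0.13 and 0.65 without and 0.68 and 1.48 with it. In MaSC the 4 Lce3c values spanned 3.44 to 3.63, while in LP they spanned -0.13 to 1.48. Lce3e was measured on the MaSC arrays 3.12 and 3.42 without and 2.62 and 3.08 with IFNα, and on the LP arrays -0.35 and -0.10 without and 0.03 and -0.15 with it. Its MaSC values spanned 2.62 to 3.42, wider than its LP values. The differences were 2.98 ± 0.19 for Lce3b, 2.89 ± 0.26 for Lce3c and 3.20 ± 0.17 for Lce3e, each with every MaSC array above every LP array.

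The 13 Lce1 genes are close relatives, most of them side by side on the chromosome, and whether a probe also reads its neighbours was not tested. Differences ran from 1.43 (Lce1a2) to 3.72 (Lce1l), all positive. In 11 of 13 genes every MaSC array lay above every LP array (7.58% of all genes). Lce1l was measured on the MaSC arrays 2.60 and 4.03 without and 2.86 and 4.21 with IFNα, and on the LP arrays -0.35 and 0.21 without and -0.95 and -0.12 with it. Lce1b stood at 3.18 and 3.74 in MaSC controls, 3.33 and 3.17 in MaSC with IFNα, -0.28 and -0.41 in LP controls, and 0.23 and 0.55 in LP with IFNα. Neither gene reached 1 on any LP array, and the differences were 3.72 ± 0.46 and 3.33 ± 0.18.

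Lce1d and Lce1a1 had some signal above the reference in LP. Lce1d read on the MaSC arrays 4.44 and 4.51 without and 4.30 and 3.50 with IFNα, and on the LP arrays 0.41 and 1.91 without and 1.35 and -0.16 with it. Lce1a1 stood at 3.88 and 3.91 in MaSC controls, 4.08 and 3.87 in MaSC with IFNα, 1.18 and 0.20 in LP controls, and 0.24 and 2.02 in LP with IFNα. The higher LP arrays were not the same for both, LP control replicate 2 for Lce1d and LP with IFNα replicate 2 for Lce1a1. MaSC exceeded LP by 3.31 ± 0.48 for Lce1d and 3.02 ± 0.43 for Lce1a1.

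In a further set of Lce1 genes the LP arrays with IFNα were the upper ones. The Lce1e level was 2.77 and 3.03 in MaSC controls, 2.98 and 3.11 in MaSC with IFNα, -0.65 and -0.16 in LP controls, and 0.46 and 1.97 in LP with IFNα. Lce1f read on the MaSC arrays 3.57 and 3.49 without and 3.51 and 3.75 with IFNα, and on the LP arrays 0.13 and 0.30 without and 1.35 and 1.80 with it. Both had their LP controls near or below the reference and both LP arrays with IFNα above them, while the MaSC values ran from 2.77 to 3.11 for Lce1e and from 3.49 to 3.75 for Lce1f. Lce1g was measured on the MaSC arrays 1.54 and 2.60 without and 1.65 and 2.46 with IFNα, and on the LP arrays -0.94 and -0.56 without and 0.36 and 1.32 with it. The Lce1h level was 3.05 and 3.74 in MaSC controls, 3.80 and 3.62 in MaSC with IFNα, 0.04 and 1.59 in LP controls, and 2.15 and 2.10 in LP with IFNα. Lce1i stood at 2.15 and 3.31 in MaSC controls, 2.63 and 2.93 in MaSC with IFNα, 0.07 and 0.49 in LP controls, and 1.11 and 1.47 in LP with IFNα. In these 3 genes too, both LP arrays with IFNα lay above both LP controls (17.9% of all genes), and every MaSC array lay above every LP array (7.58%). Of the 13 Lce1 genes 6 had this order of the LP arrays, Lce1b among them. No Lce1 gene passed in limma's test of the LP response (lowest adjusted p = 0.144). MaSC exceeded LP by 2.57 ± 0.35 for Lce1e, 2.69 ± 0.16 for Lce1f, 2.02 ± 0.36 for Lce1g, 2.08 ± 0.37 for Lce1h and 1.97 ± 0.29 for Lce1i. Lce1c read on the MaSC arrays 1.54 and 2.76 without and 1.92 and 2.02 with IFNα, and on the LP arrays -0.17 and 0.02 without and -0.07 and 0.49 with it. Its difference was 2.00 ± 0.30, with MaSC arrays from 1.54 to 2.76 and LP arrays from -0.17 to 0.49. Lce1k (1.56 ± 0.59) and Lce1m (1.76 ± 0.64) were the 2 Lce genes with overlapping arrays: a MaSC control of Lce1k was at -0.57 and an LP array of Lce1m at 2.36.

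The small proline-rich genes ranged from wide gaps to differences near 0. Sprr1a and Sprr1b encode the early crosslinked bridges of the envelope that also mark squamous change in other epithelia. The Sprr1b level was 5.62 and 5.83 in MaSC controls, 5.53 and 5.92 in MaSC with IFNα, -0.02 and 0.15 in LP controls, and -1.14 and 0.39 in LP with IFNα. Sprr1a read on the MaSC arrays 2.95 and 3.42 without and 3.05 and 3.44 with IFNα, and on the LP arrays -1.23 and -2.77 without and -2.78 and -2.66 with it. For Sprr1b the LP arrays lay about the reference, and for Sprr1a they lay below it, and the differences were 5.88 ± 0.35 and 5.57 ± 0.36. Without LP control replicate 1, whose Sprr1a value was the least negative of the LP arrays, the Sprr1a difference was 5.96. Sprr4, whose human counterpart is known to respond to ultraviolet light in skin, stood at 1.20 and 3.04 in MaSC controls, 0.99 and 2.11 in MaSC with IFNα, -0.43 and -0.12 in LP controls, and -0.88 and -0.96 in LP with IFNα. It differed by 2.43 ± 0.46. Sprr3, abundant in the oesophagus and mouth, was the exception, from -2.55 to -1.46 in MaSC and -1.15 to -0.17 in LP, with a difference of -1.36 ± 0.32 and no overlap.

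Among the 11 Sprr2 genes the population difference ran from -0.01 (Sprr2b) to 3.71 (Sprr2h). Sprr2h read on the MaSC arrays 2.97 and 3.62 without and 2.38 and 3.05 with IFNα, and on the LP arrays -0.36 and -1.62 without and -1.68 and 0.84 with it. Its MaSC arrays were all above 2 and its LP arrays all below 1 (3.71 ± 0.62). Sprr2f stood at 3.40 and 3.11 in MaSC controls, 0.79 and 2.86 in MaSC with IFNα, -0.33 and -0.63 in LP controls, and -0.42 and -0.15 in LP with IFNα. MaSC with IFNα replicate 1 came closest to the LP range, and the difference was 2.92 ± 0.45. Sprr2g was measured on the MaSC arrays -1.03 and 1.30 without and -1.83 and 0.12 with IFNα, and on the LP arrays -1.95 and -4.56 without and -3.49 and -4.33 with it. It lay on either side of the reference in MaSC and below it on all LP arrays, with a difference of 3.23 ± 0.85. For Sprr2i, whose values are given with the IFNα comparison, the difference was 2.84 ± 1.01.

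Sprr2a2 was read by 3 probes that did not give 1 answer. As their mean it stood at 1.45 and 1.50 in MaSC controls, 1.07 and 1.11 in MaSC with IFNα, -0.40 and -0.90 in LP controls, and -0.79 and -1.02 in LP with IFNα. The mean difference was 2.06 ± 0.16, and the probes separately gave 0.26, 1.03 and 4.89. Sprr2b and Sprr2a1 stayed between -0.37 and 0.25 on all arrays, and both lay at the most common ratio on 4 of 4 MaSC and 3 of 4 LP arrays. Their differences were -0.01 ± 0.15 and 0.15 ± 0.15, and the absence of a difference there cannot be told from absence of signal. Sprr2d, Sprr2e, Sprr2j-ps and Sprr2k had differences of 1.08, 0.74, 1.09 and 0.72, and that of Sprr2d was 0.37 without LP control replicate 1. The Sprr2 genes are close relatives, and whether their probes share transcripts was not tested.

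The S100a genes, which encode small calcium sensors with roles well outside the skin, did not move as a block. Their differences ran from -1.02 (S100a1) to 1.80 (S100a9), with 8 of 11 positive and a median of 0.18. S100a8 and S100a9 encode the 2 subunits of calprotectin, an alarm protein of neutrophils and stressed keratinocytes. S100a9 stood at 4.95 and 5.04 in MaSC controls, 4.54 and 4.68 in MaSC with IFNα, 0.16 and 2.52 in LP controls, and 4.43 and 4.89 in LP with IFNα. The LP controls were the lowest samples and the other 6 arrays lay together between 4.43 and 5.04. The population difference was 1.80 ± 0.50, or 1.21 without LP control replicate 1. S100a8 read on the MaSC arrays 2.59 and 2.31 without and 2.63 and 0.92 with IFNα, and on the LP arrays 2.44 and 2.64 without and 3.23 and 2.75 with it. Its 2 populations overlapped, and the difference was -0.65 ± 0.39. The markers of neutrophils and granulocytes, cells in which S100a8 and S100a9 are abundant, had array medians of -0.18 to 0.40 over 11 measured genes. Of these 0 of 11 passed between the populations, where 2.34% of all genes passed as higher in MaSC and 1.34% as lower. Whether such cells contributed to the S100a8 and S100a9 values was not tested.

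S100a14 and S100a16 encode S100 proteins widespread in epithelia. S100a14 was measured on the MaSC arrays 3.83 and 4.04 without and 4.07 and 4.19 with IFNα, and on the LP arrays 0.86 and 3.36 without and 3.32 and 3.71 with it. Only LP control replicate 1 fell below 3, and the population difference was 1.22 ± 0.53, or 0.60 without that array. S100a16 differed by 0.80 ± 0.21 and S100a11, whose protein is a transglutaminase substrate and annexin partner, by 0.62 ± 0.18. S100a3, whose protein is known from the hair cuticle, stood at -0.15 and -0.21 in MaSC controls, 0.12 and 0.30 in MaSC with IFNα, -0.44 and -0.27 in LP controls, and -1.04 and -0.91 in LP with IFNα. Every MaSC array was above every LP array, by 0.68 ± 0.13, within a total range from -1.04 to 0.30.

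S100a1, best known from heart muscle, stood at 0.22 and -0.14 in MaSC controls, 0.24 and -0.30 in MaSC with IFNα, 0.69 and 1.08 in LP controls, and 1.26 and 1.09 in LP with IFNα. The LP arrays were all higher, and the difference was -1.02 ± 0.19. S100a10, the partner of annexin A2, also had its 4 LP arrays above its 4 MaSC arrays, from 0.56 to 0.65 against 0.14 to 0.39. S100a2, S100a5 and S100a13 differed by 0.12, 0.18 and 0.07. S100a4, a motility-linked S100 protein also high in fibroblasts, was not tested because it was empty on MaSC control replicate 1. It read -2.75 in MaSC control replicate 2, -3.97 and -3.20 in MaSC with IFNα, -4.42 and -4.49 in LP controls and -4.57 and -4.67 in LP with IFNα, below the reference on all 7 arrays. S100a6, calcyclin, was empty on 4 arrays, all of replicate 1. Its other values were -0.20 and -0.25 in MaSC and 0.78 and 0.91 in LP.

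Along chromosome 3 the difference was not limited to the genes taken by the symbol rule. The 11 other measured genes between the first and last member had a median difference of 2.11, with 9 of 11 positive. Among them S100a7a and S100a7l2 are S100 genes that the rule leaves out, at 3.23 and -0.24. In 7 of the 11 the 4 MaSC arrays lay above the 4 LP arrays (7.58% of all genes), and in 0 the reverse (10.4%). Low differences stood beside high ones: Sprr3 lies between Sprr1b and Sprr1a, and Hrnr between Flg and Rptn. The S100a genes lie at both ends of the stretch.

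**Figure D2:**
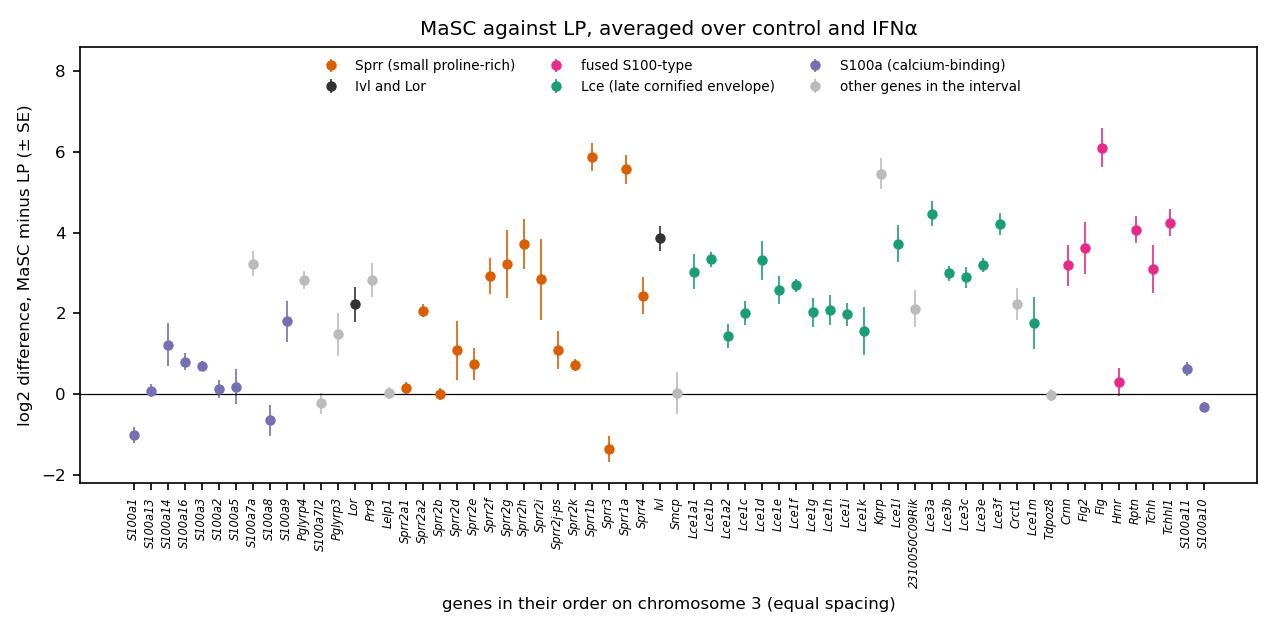
Log2 difference of MaSC minus LP, averaged over control and IFNα (vertical axis, point with ± SE from limma), for the tested members and 11 measured neighbours (grey) in their order on chromosome 3 at equal spacing. Differences above 3 occur in the middle of the row from Sprr2g to Tchhl1, and in S100a7a. The member S100a genes at the ends lie between -1.02 and 1.80.

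Of these 11 neighbours 5 passed as higher in MaSC by limma with Benjamini-Hochberg adjustment over all genes (background 2.34%), none as lower. A list of 12 tested genes in or beside the complex that the symbol rule leaves out held 4 of the 5, and Prr9, which is not on it, was named after its values were seen. Kprp, encoding keratinocyte proline-rich protein, stood at 4.49 and 5.41 in MaSC controls, 4.71 and 4.94 in MaSC with IFNα, 0.09 and -1.24 in LP controls, and -0.92 and -0.23 in LP with IFNα. It was higher by 5.46 ± 0.38 (adjusted p = 0.00329). S100a7a, a relative of human psoriasin, was higher by 3.23 ± 0.31 (adjusted p = 0.00863). Pglyrp4, a peptidoglycan recognition protein, was higher by 2.83 ± 0.22 (adjusted p = 0.0049), and Crct1 by 2.23 ± 0.39 (adjusted p = 0.043). Prr9, a proline-rich gene next to Lor, was higher by 2.83 ± 0.42 (adjusted p = 0.0288), and without LP control replicate 1 by 2.79 (adjusted p = 0.0655). Kprp and Pglyrp4 passed in all 8 fits that leave out 1 array, S100a7a in 7, Prr9 in 2 and Crct1 in 1.

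Interferon-response genes rose in these cultures. Averaged over both populations, 7 of 7 measured interferon-response genes rose in limma's test, from 5.31 ± 0.34 for Irf7 to 7.61 ± 0.80 for Ifit1 (adjusted p = 0.00342 and 0.0185). With 1 array left out Irf7, Oas1a, Usp18 and Oasl2 passed in 8 of 8 fits, and Isg15, Ifit1 and Mx1 in 2. Within MaSC and within LP 4 of these 7 genes passed, although their median responses were 6.62 and 6.20. Of the complex genes 0 of 53 passed in MaSC, in LP, in the average or in the difference of the responses. Not passing therefore does not show that a member did not respond. At an unadjusted p under 0.05 limma gave 2, 7, 4 and 6 of the 53 members, and 989, 1618, 1426 and 931 of all 21794 genes. After adjustment 0.234%, 0.33% and 0.592% of all genes passed in MaSC, LP and the average, and 0 passed in the difference. The members' median response was -0.07 in MaSC (all genes -0.05) and 0.06 in LP (all genes 0.0038).

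**Figure D3:**
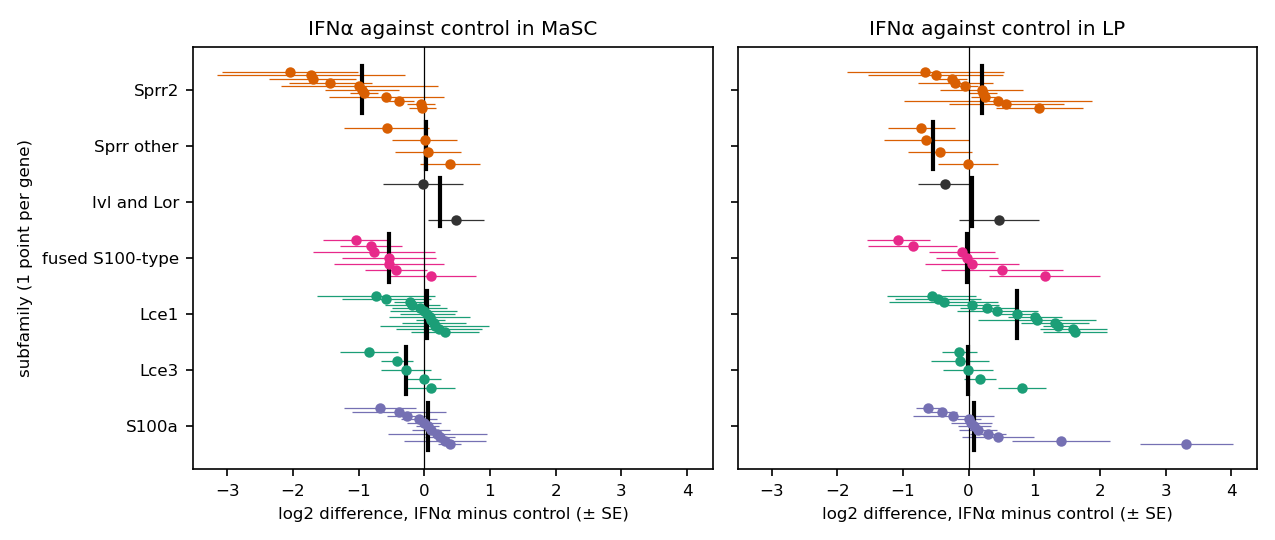
Log2 response to IFNα (horizontal axis, IFNα minus control, ± SE) of each tested member by subfamily in MaSC (left) and LP (right), with a black bar at the subfamily median. In MaSC the 11 Sprr2 points have a median of -0.95, and in LP the Lce1 median is 0.73 and S100a9 lies alone at 3.32.

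In MaSC the Sprr2 genes other than Sprr2a1 and Sprr2b had lower means with IFNα than without, and none passed. Of all 21794 genes 12770 had a lower mean. Sprr2a1 and Sprr2b lay at the most common ratio on all 4 MaSC arrays and are left out of these counts. Sprr2d, Sprr2g, Sprr2i and Sprr2k each lay there on 1 MaSC array with IFNα, and Sprr2e on 1 MaSC control. Those values cannot be told from absence of signal. The median difference was -0.99 over the other 9 genes, or -0.95 over all 11, and for 5 of the 9 both arrays with IFNα lay below both controls, against 20.3% of all genes. Sprr2d stood at 2.75 and 3.05 in MaSC controls, 1.64 and 0.06 in MaSC with IFNα, -0.35 and 2.46 in LP controls, and 1.25 and -0.15 in LP with IFNα. Its difference with IFNα was -2.05 ± 1.03 in MaSC and -0.50 ± 1.03 in LP, where it was -1.91 without LP control replicate 1. Sprr2k read on the MaSC arrays 1.07 and 1.03 without and 0.01 and 0.26 with IFNα, and on the LP arrays -0.40 and -0.10 without and 0.18 and -0.17 with it. Its MaSC difference of -0.92 ± 0.22 had the lowest p of the members in this comparison (limma adjusted p = 0.53).

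Sprr2i and Sprr2j-ps showed how much the MaSC replicates of this family varied. Sprr2i was measured on the MaSC arrays 2.16 and 5.22 without and 0.08 and 3.85 with IFNα, and on the LP arrays -0.35 and -0.10 without and 0.58 and -0.15 with it. The replicates of each MaSC group lay more than 3 apart, and the difference with IFNα was -1.72 ± 1.43. Sprr2j-ps, annotated as a pseudogene, read on the MaSC arrays 1.16 and 2.86 without and 0.79 and -0.16 with IFNα, and on the LP arrays -0.36 and -0.57 without and 1.14 and 0.07 with it. The MaSC difference was -1.70 ± 0.66. Those of Sprr2f, Sprr2g and Sprr2e were -1.43 ± 0.64, -0.99 ± 1.20 and -0.95 ± 0.57. The median of all 11 was -0.36 without MaSC IFNα replicate 1 and -0.28 without MaSC control replicate 2, against -1.29 without MaSC control replicate 1 and -1.22 without MaSC IFNα replicate 2. In LP the median of the Sprr2 genes was 0.20, with 6 of 11 positive. The other subfamilies had MaSC medians of 0.03 (other Sprr), 0.05 (Lce1), -0.27 (Lce3), 0.05 (S100a), -0.54 (fused S100-type) and 0.23 (Ivl and Lor).

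**Figure D4:**
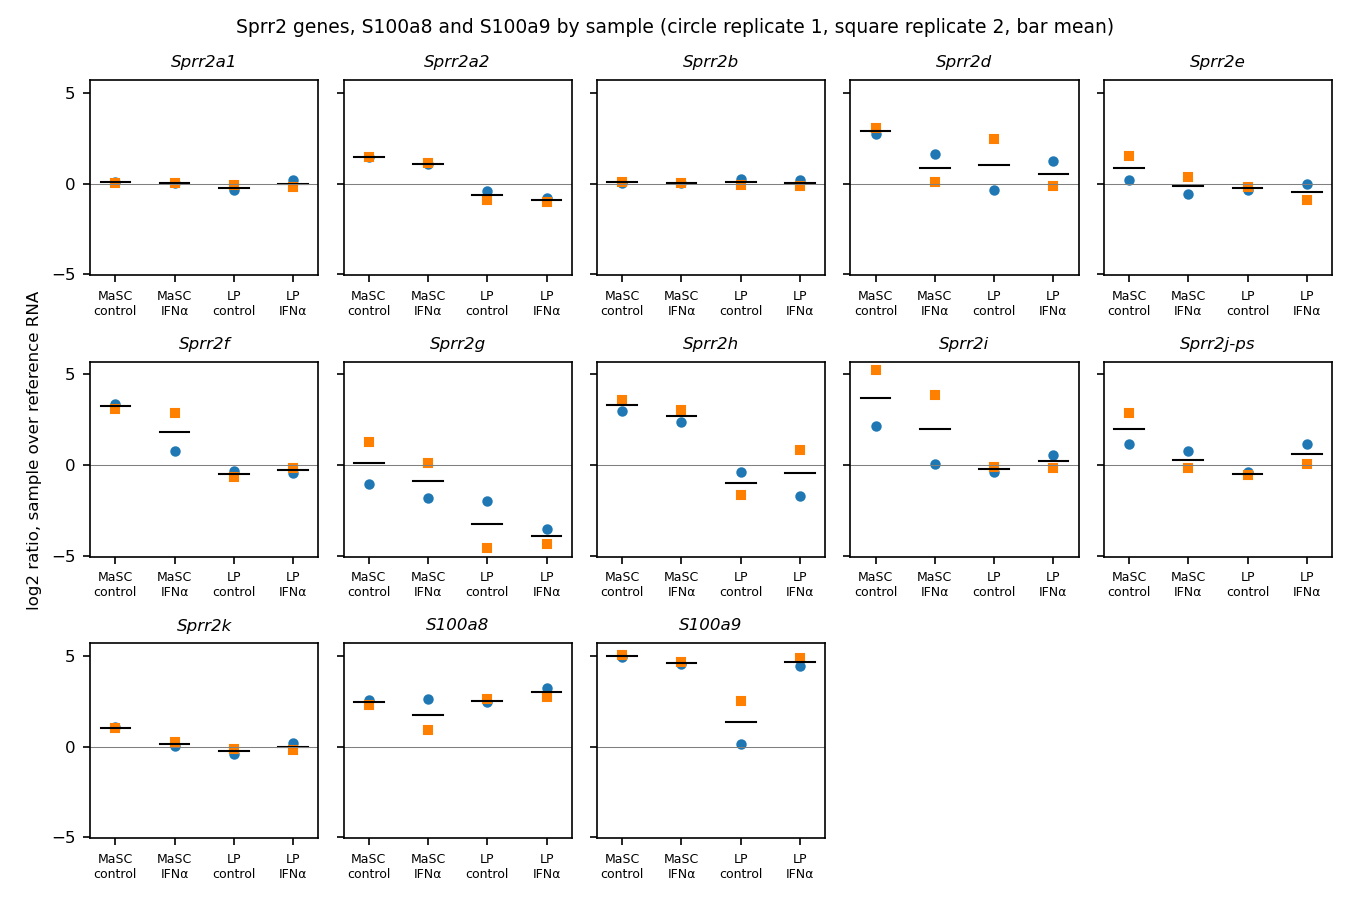
Log2 ratio to the reference (vertical axis) of the 11 Sprr2 genes, S100a8 and S100a9 in the 4 groups, with circles for replicate 1, squares for replicate 2 and a bar at the mean. In most Sprr2 panels the MaSC bar is lower with IFNα, and in S100a9 the LP control bar lies below the 3 other bars, which all exceed 4.

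In LP the largest member response was that of S100a9, 3.32 ± 0.71 (limma adjusted p = 0.299), and in MaSC the difference was -0.38 ± 0.71. Without LP control replicate 1 the LP difference was 2.14 (adjusted p = 0.129) and without LP control replicate 2 it was 4.50 (adjusted p = 0.0181), while the other alternatives gave adjusted p from 0.192 to 0.771. For S100a14 the LP difference was 1.41 ± 0.75 in the full fit and 2.66 (adjusted p = 0.0282) without LP control replicate 2, a fit in which the narrow array is the only LP control. Without that narrow array, LP control replicate 1, the S100a14 difference was 0.15 (adjusted p = 0.998). Of the 22 members with an LP response of at least 0.5 in size, 11 moved by over 1.5 times without LP control replicate 1. S100a8, the partner of S100a9, had a difference of 0.45 ± 0.55 in LP and -0.68 ± 0.55 in MaSC.

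The Lce1 genes had a median LP response of 0.73 with 10 of 13 positive, and for 6 of 13 both arrays with IFNα lay above both controls (all genes 17.9%). That median was 0.19 without LP IFNα replicate 2 and 1.19 without LP IFNα replicate 1. The values were 1.62 ± 0.49 for Lce1e, 1.59 ± 0.51 for Lce1g, 1.35 ± 0.22 for Lce1f and 1.31 ± 0.52 for Lce1h. Lce1f had the lowest p of the members (adjusted p = 0.144). In MaSC, where these genes were already above 1.5 in controls, the differences were 0.15 ± 0.49, -0.01 ± 0.51, 0.10 ± 0.22 and 0.31 ± 0.52. Without LP control replicate 1 the LP values were 1.38 for Lce1e, 1.40 for Lce1g, 1.27 for Lce1f and 0.54 for Lce1h. The median LP responses of the other subfamilies were -0.02 (Lce3), -0.03 (fused S100-type), -0.54 (other Sprr), 0.09 (S100a) and 0.05 (Ivl and Lor). No member passed in limma's test of the difference between the responses (lowest adjusted p = 0.9997), and the median of the difference was -0.40 over the members.

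Beyond the cluster, genes that act with it in cornifying skin had the same direction more often than not. The lists from here on were chosen with earlier results of these data known. Their counts and p-values are thus a description and no separate support. Of 25 envelope partners measured, 23 were positive and 9 passed as higher in MaSC (background 2.34%), none as lower, with a median of 1.49. Cdsn, which encodes the adhesion protein corneodesmosin, was higher by 6.15 ± 0.47 (limma adjusted p = 0.00469). Dsg1a, a desmosomal cadherin of upper epidermis, was higher by 4.95 ± 0.17 (adjusted p = 0.000829). Krtdap, a keratinocyte secreted protein, was higher by 4.76 ± 0.32 (adjusted p = 0.00314), and the desmocollin gene Dsc3 by 3.73 ± 0.58 (adjusted p = 0.0321). The crosslinking enzyme genes did not pass: Tgm1 differed by 1.49 ± 0.60 and Tgm3 by 0.16 ± 0.15 (adjusted p = 0.213 and 0.567), and without LP control replicate 1 the Tgm1 difference was 0.81. Cdsn, Dsg1a and Krtdap passed in all 8 fits that leave out 1 array and Dsc3 in 2, and 4 to 9 partners passed in those fits (6 without LP control replicate 1).

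The keratins of stratified epithelia passed as higher in MaSC in 6 of 13 genes measured (background 2.34%), none as lower, with a median of 1.22. Krt15 and Krt5, both keratins of basal cells, were higher by 3.96 ± 0.64 (adjusted p = 0.0355) and 3.78 ± 0.29 (adjusted p = 0.00453). Krt78 was higher by 3.32 ± 0.36 (adjusted p = 0.0118) and Krt6b, a keratin of injured skin, by 2.43 ± 0.38 (adjusted p = 0.0323). Krt1 and Krt10, the keratin pair of the suprabasal epidermis, did not pass, at 1.64 ± 0.49 and 1.22 ± 0.55 (adjusted p = 0.124 and 0.253). Krt1 stood at 0.70 and 2.52 in MaSC controls, 0.68 and 1.99 in MaSC with IFNα, 0.22 and -0.45 in LP controls, and -0.25 and -0.19 in LP with IFNα. Both MaSC samples of replicate 2 were thus higher than those of replicate 1. With 1 array left out, 1 to 5 keratins passed (5 without LP control replicate 1): Krt5 in 8 of 8 fits, Krt78 in 7, and Krt15 and Krt6b in 2 each.

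Transcription factors of epidermal differentiation were looked at because several of them bind complex genes in skin. Of 33 measured, 2 passed as higher in MaSC (background 2.34%) and none as lower (1.34%), and the median was 0.22. Hopx, an atypical homeodomain gene, was higher by 3.37 ± 0.19 (adjusted p = 0.00251), and Trp63, which encodes the basal regulator p63, by 1.67 ± 0.31 (adjusted p = 0.0476). The AP-1 genes, whose protein complex recognises the letters TGANTCA, did not pass: Fos differed by -0.52 ± 0.22, Junb by -0.39 ± 0.16, Fosl1 by -0.33 ± 0.17 and Jun by 0.22 ± 0.15, and Fos by -0.34 without LP control replicate 1. Ovol1, Klf4 and Prdm1, regulators of terminal differentiation, had 2.75 ± 0.77, 1.56 ± 0.59 and 1.27 ± 0.26 (adjusted p = 0.108, 0.19 and 0.0595). Among the 11 S100 partners and receptors measured, 1 passed as higher (background 2.34%) and none as lower, with a median of 0.14. It was Cd36, a scavenger receptor, higher by 2.30 ± 0.43 (limma adjusted p = 0.0497). With 1 array left out Hopx passed in 8 of 8 fits, Cd36 in 2 and Trp63 in 1.

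**Figure D5:**
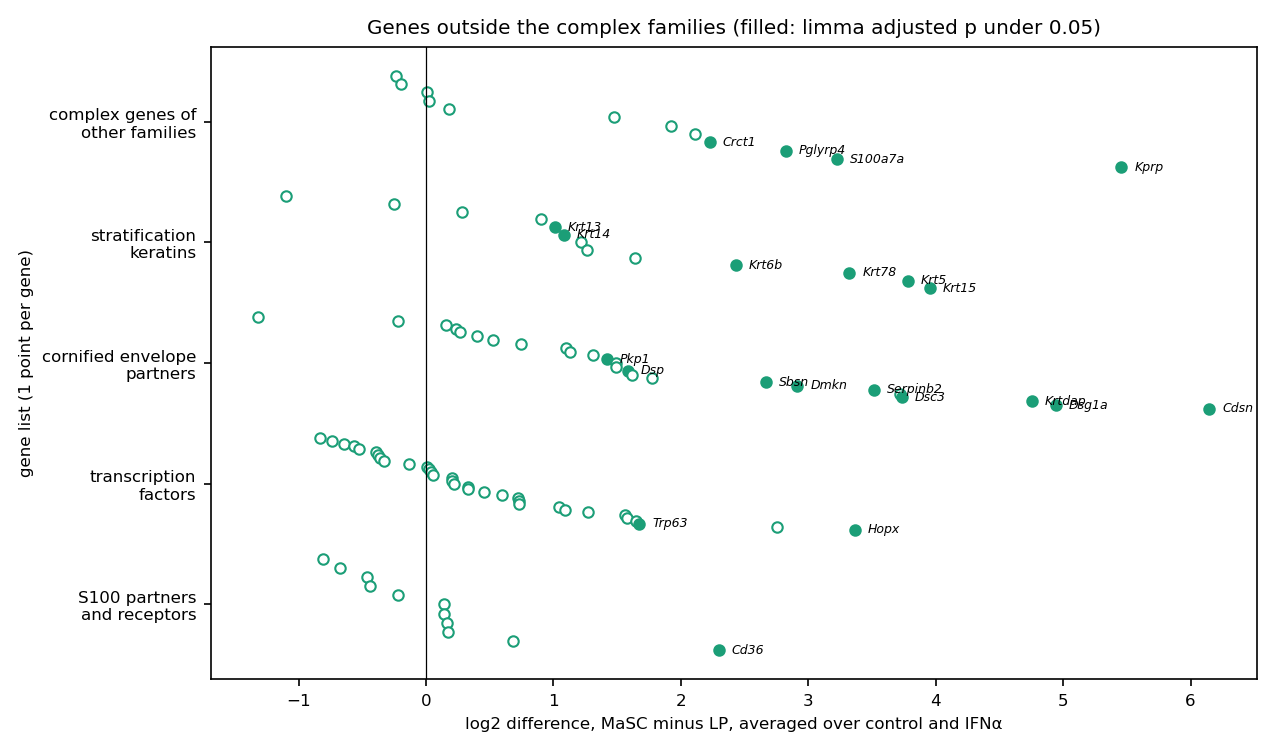
Log2 difference of MaSC minus LP averaged over control and IFNα (horizontal axis) for genes of 5 lists outside the symbol rule. Each point is 1 gene, filled and named where limma's adjusted p was under 0.05. All filled points lie right of 0, with Cdsn at 6.15 and Kprp at 5.46 the farthest.

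Markers of some cell types differed between the populations, and those that passed were all higher in MaSC. Of all genes 2.34% passed as higher in MaSC and 1.34% as lower. The cornifying keratinocyte markers were positive in 11 of 11 and passed in 5. Of the 11, 9 also belong to the partner or keratin lists above, as do 4 of the 5 that passed, so they are not a separate set. They had array medians of 3.51 to 3.95 in MaSC and 0.17 to 0.36 in LP. Endothelial markers passed in 4 of 7, Cdh5, Emcn, Tek and Kdr, with array medians of 2.28 to 2.79 in MaSC and -0.09 to 0.71 in LP, while the endothelial marker Pecam1 lay between -0.88 and -0.01 on all arrays. Fibroblast markers passed in 2 of 8 (Dcn and Lum), with medians of -3.38 to -1.13 in MaSC and -4.07 to -3.22 in LP. With 1 array left out the counts ran from 1 to 7 for the basal, 4 to 6 for the keratinocyte, 2 to 4 for the endothelial and 1 to 3 for the fibroblast markers. No luminal progenitor (0 of 9), mature luminal (0 of 6) or leukocyte marker (0 of 9) passed. The luminal progenitor markers had a median difference of 0.62, the direction of higher in MaSC. The part of these cell types in the differences of the complex genes was not tested.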

How the data were processed

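Test RNA was labelled with Cy5 and the reference mix with Cy3, per the labels' protocols, and the submitters' processing notes name Agilent Feature Extraction 11.0. The authors deposited log ratios of the channels, which are treated here as log2 of sample over reference. The base, the background correction and the centring are not given in the sources used here. Base 2 was taken because the values exceed what log10 of 16-bit signals allows, and another base would scale every log2 value by 1 factor. Of 55681 probes, 347 were empty on at least 1 array, and intensities were not analysed here.

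Of the probes 30626 carried a gene symbol and 25055 carried none in the probe annotation. Probes with a symbol and no empty array were averaged per symbol to 21794 genes. Of the members 8 were read by several probes. limma 3.58.1 in R 4.3.3 fitted the 4 group means to the 8 arrays with no block term, with empirical Bayes moderation (4 residual and 1.98 prior degrees of freedom), and p-values were adjusted by Benjamini and Hochberg over all genes in each comparison, with 0.05 as threshold. All tests were two-sided. The number of arrays limits the precision. The script recovered most of the largest changes added to simulated data. That noise was independent between genes and arrays, with no narrow array, and the recovery of smaller changes is not given here.

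The members and all gene lists were chosen with earlier results of these data known. Values of every sample are given for members that passed in any of the 7 comparisons, for up to 4 per subfamily with the widest range of group means, and for Ivl, Lor, Flg, Sprr1a, S100a8, S100a9 and S100a4. From other lists up to 4 passing genes with the largest change are named, or the one with the lowest p. Additional genes named with values (Sprr2d, Sprr2i, Sprr2j-ps, Sprr2k, Prr9, Krt1, Krt10, Tgm1, Tgm3, Fos, Fosl1, Jun, Junb, Ovol1, Klf4 and Prdm1) were chosen after their values were seen. Start windows come from RefSeq on GRCm38.p6, the first listed window per gene. Alternatives were leaving out each array, a replicate block, quantile normalization, scaling or centring of arrays, probe summary, empty probes kept, trended robust moderation and fits of the compared groups alone. Leaving out arrays for the lists outside the symbol rule, for Prr9 and for subfamily medians was added after seeing the data.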

Additional observations from a re-analysis of the deposited data

Results flagged for a closer look

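For 3 of the 53 complex genes (5.66%) both samples with IFNα lay on one side of both controls in MaSC and on the opposite side in LP, as did 973 of all genes (4.46%). S100a9 had a response of -0.38 in MaSC and 3.32 in LP, a difference (MaSC minus LP, log2) of -3.70. Sprr2j-ps had -1.70 in MaSC and 1.07 in LP, a difference of -2.77. S100a3 had 0.39 in MaSC and -0.62 in LP, a difference of 1.01. In limma's test of the difference itself the adjusted p was 0.9997 for each. Groups of 2 samples allow no check for outlying samples within a group.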

How the results depend on the processing

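In controls 14 members passed. With trended robust moderation 9 did, in a fit of the compared groups alone 0 did, and with 1 array left out 0 to 14 did (1 without LP control replicate 1 or MaSC control replicate 1, 0 without MaSC control replicate 2, 6 without an LP IFNα array and 8 without a MaSC IFNα array). With IFNα 13 passed, against 6 with a replicate block, 0 in the compared groups alone and 0 to 13 with 1 array left out. In the average 28 passed, and 15 to 25 with 1 array left out, fewest (15) without MaSC control replicate 2 or LP IFNα replicate 1, while 14 of the 28 passed under all 15 alternatives. The 15 alternatives do not include fits of single probes. In such a fit the adjusted p in limma was 0.379, 0.171 and 0.00494 for the probes of Sprr2a2, a gene among the 14. For Ivl, also among them, it was 0.00494 and 0.0691. The median of the members ran from 2.24 to 3.12 in controls when an array was left out, and the Sprr2 median in MaSC from -1.29 to -0.28 and the Lce1 median in LP from 0.19 to 1.19. Without LP control replicate 2, 2 members (S100a9 and S100a14) passed in the LP response and in the average response, and 0 to 2 did over the arrays left out. No direction of a passing member was reversed. Over all genes, counts with 1 array left out ran from 0 to 368 in controls (131 with all arrays), 0 to 165 with IFNα (110), 136 to 781 in the average (804), 0 to 57 for the MaSC response (51), 0 to 422 for the LP response (72) and 40 to 201 for the average response (129). The trended robust fit gave 68 and quantile normalization 218 in controls, and the median-centred fit 33 for the MaSC response. With the replicate block 54 genes passed with IFNα, 12 in the MaSC and 27 in the LP response, and fits of the compared groups alone gave 0. The labels do not say that replicate numbers mark anything shared, and correlations of the deviations of same-numbered samples ran from -0.02 to 0.31, the highest between MaSC control and MaSC with IFNα, so the numbers were not taken as pairs. S100a6 was empty on all 4 arrays of replicate 1 and on 0 of replicate 2, and what the numbers mark is not known. With the replicate block 13, 6 and 30 members passed in controls, with IFNα and in the average. The cause of these changes was not tested. Signal over background is unknown, so values near 0 carry no lower limit.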
